A study of Homo sapiens with 6 samples.

Results

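The genes described here are 9 components of major histocompatibility complex (MHC) class I antigen presentation, HLA-B, HLA-C, HLA-E, HLA-F, B2M, TAP1, TAP2, TAPBP and ERAP1, in SW480 cells exposed to the mitochondrial probe MPM-1. They were chosen by gene symbol for their role in the pathway, without a threshold on a measured value, and all 9 had a row among the 12982 genes of the expression table. mRNA was sequenced in 3 libraries labelled DMSO and 3 labelled WT4, the working name of MPM-1, each collected after 24 h. SW480 is an established human colon adenocarcinoma line, labelled as wild type in both groups, so that the solvent control and the probe are the difference between them. The sample labels give no probe concentration for these libraries and do not say whether the replicates were separate cultures or repeated preparations, so p-values measure only the spread between these samples.

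Class I molecules carry short peptides from proteins made inside the cell to the surface, where CD8 T cells and natural killer cells read them. A polymorphic heavy chain, such as HLA-B or HLA-C, pairs with the invariant light chain β2-microglobulin, encoded by B2M. Peptides cut by the proteasome are pumped into the endoplasmic reticulum by the TAP1 and TAP2 transporter, trimmed by the aminopeptidase ERAP1 and loaded with the help of tapasin, encoded by TAPBP.

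The libraries held between 31733667 and 40269820 counted reads. The lowest count of any member in any library was 88, for ERAP1, and the other 8 members were counted far above that. Of 11 colon epithelial markers 10 had a row, with EPCAM at a mean of 676 CPM (read counts scaled to library size) in both groups. Of these 10, 5 were higher (50%) and 4 lower (40%) after MPM-1, against 27.7% and 28.8% of all genes. ELF3 and KRT18 were among those higher (log2 fold changes 1.58 and 0.89, edgeR adjusted p = 3.06e-06 and 6.17e-06) and KRT20 and CDX2 among those lower (-2.03 and -2.20, edgeR adjusted p = 3.26e-05 and 5.29e-06). Of 15 immune markers 12 had no row, PTPRC and the CD3 chains among them, and the summed level of the other 3 was 68.9 to 96.5 CPM in DMSO and 144 to 159 CPM after MPM-1, of which CD68, a lysosomal protein gene, made up 145 CPM on average after MPM-1. The part of these shifts in the class I results was not tested. All differences below are MPM-1 against DMSO from edgeR's quasi-likelihood test on the counts of all genes, with Benjamini-Hochberg adjustment over all of them and 0.05 as the threshold. CPM are scaled by edgeR's trimmed mean of M values (TMM). Levels of different genes are compared in FPKM, which divides by transcript length as well as by depth, except where CPM is named.

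The promoters of B2M, HLA-B, HLA-C and TAP2 are shown because the first 3 belong to the genes with the largest rises among the members and the last to a member that was lower. Each is the stretch of 250 bases upstream of the first RefSeq start on GRCh38.p14, written 5′ to 3′ on the strand of the gene. B2M lies on the plus strand (chr15:44711267-44711516), and HLA-B (chr6:31357180-31357429), HLA-C (chr6:31272093-31272342) and TAP2 (chr6:32838740-32838989) on the minus strand. Capitals mark, on either strand, the interferon-response core AANNGAAA, the half-site TGACG, the CCAAT box and the NF-κB half-site GGGGATT, all searched after the expression values were known.
B2M: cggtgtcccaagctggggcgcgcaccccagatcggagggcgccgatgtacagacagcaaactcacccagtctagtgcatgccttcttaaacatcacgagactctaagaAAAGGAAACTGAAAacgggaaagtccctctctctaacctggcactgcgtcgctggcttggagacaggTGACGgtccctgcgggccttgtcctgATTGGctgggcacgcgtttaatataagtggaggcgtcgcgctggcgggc
HLA-B: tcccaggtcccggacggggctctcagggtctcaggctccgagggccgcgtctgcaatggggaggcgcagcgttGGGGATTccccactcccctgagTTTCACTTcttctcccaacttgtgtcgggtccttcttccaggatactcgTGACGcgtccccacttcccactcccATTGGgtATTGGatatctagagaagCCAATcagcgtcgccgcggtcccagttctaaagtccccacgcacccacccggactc
HLA-C: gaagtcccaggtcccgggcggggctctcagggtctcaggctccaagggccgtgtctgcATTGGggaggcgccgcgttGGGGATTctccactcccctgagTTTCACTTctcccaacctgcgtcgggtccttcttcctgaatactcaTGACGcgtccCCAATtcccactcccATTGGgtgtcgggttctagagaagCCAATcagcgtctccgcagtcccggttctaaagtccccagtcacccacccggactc
TAP2: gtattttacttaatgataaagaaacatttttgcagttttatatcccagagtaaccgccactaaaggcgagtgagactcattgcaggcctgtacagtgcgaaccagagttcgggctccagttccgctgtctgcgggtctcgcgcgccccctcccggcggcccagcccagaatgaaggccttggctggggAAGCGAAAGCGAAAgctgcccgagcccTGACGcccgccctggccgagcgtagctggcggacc

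The HLA-B and HLA-C promoters were identical at 89.0% of aligned bases, while HLA-B and B2M shared 49.5%. The HLA-F promoter was identical to that of HLA-B at 80.4% and to that of HLA-C at 78.7%, so these promoters are not independent. A promoter entry was found for 8 of the 9 members, HLA-E being the one without. The core AANNGAAA was present in 7 of these 8, counting the first listed start of each member, and that of ERAP1 lacked it. It was present in 20.3% of 35116 RefSeq promoters of the same length, which count every listed start of a gene. A second listed start of ERAP1 held 2 copies and a second one of TAP1 held 0. At the first start the core was held both by members that were higher after MPM-1 (B2M, HLA-B, HLA-C, HLA-F) and by members that were lower (TAP2, TAPBP). In B2M, TAP1, TAP2 and TAPBP there were 2 overlapping copies, as in the capitals of B2M and TAP2 above. TGACG was found in 4 of the 8 (21.2% of all promoters), CCAAT in 6 of the 8 (32.0%) and GGGGATT in 3 of the 8 (3.19%), those of HLA-B, HLA-C and TAPBP. A match describes the letters and does not show that a factor binds there.

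Of the 9 members 4 were higher (B2M, HLA-B, HLA-C and HLA-F), 2 were lower (TAP2 and TAPBP) and 3 did not pass the test (HLA-E, TAP1 and ERAP1). Over all 12982 genes, 27.7% were higher and 28.8% lower at the same threshold, so a call by itself is common in these data, and the median log2 fold change was 0.22 over the members and -0.03 over all genes. Stricter limits, an adjusted p under 0.01 together with a log2 rise of 1 or more, were met by B2M alone among the members and by 5.58% of all genes, and the same limits downward by none of the members and by 8.75% of all genes. In CPM the 3 MPM-1 libraries lay wholly above the 3 DMSO libraries for the 4 members called higher and wholly below for the 2 called lower, as they did for 31% and 33.3% of all genes. In bulk RNA a change in every cell and a change in some of the cells cannot be told apart.

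**Figure D1:**
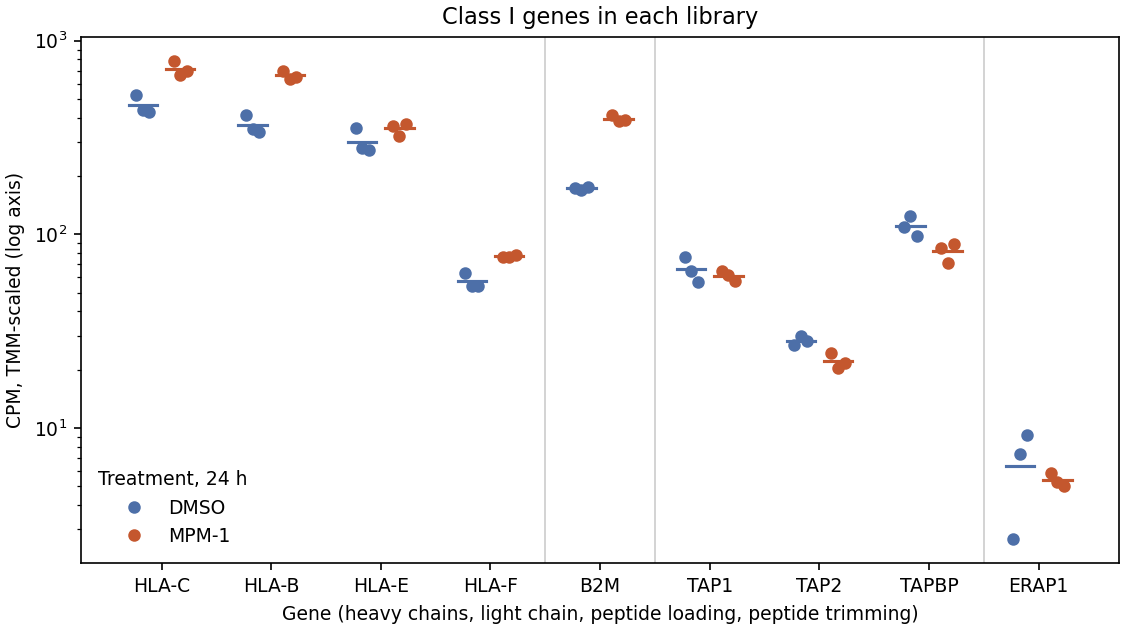
Level of the 9 class I genes in each of the 6 libraries, in TMM-scaled CPM on a log axis, with DMSO in blue and MPM-1 in orange; points are libraries and short bars are group means (n = 3). The groups do not overlap for HLA-B, HLA-C, HLA-F and B2M, higher after MPM-1, and for TAP2 and TAPBP, lower after MPM-1, and ERAP1 has the widest DMSO spread, from 2.67 to 9.19 CPM.

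B2M (chr15:44711487-44718877, plus strand, GRCh38) encodes the light chain with which classical heavy chains such as those of HLA-B and HLA-C pair. It stood at 173, 170 and 176 CPM in the DMSO libraries and at 414, 387 and 388 CPM in the MPM-1 libraries. The DMSO values were nearly level, and every MPM-1 library was far above all of them. The log2 fold change was 1.20 (SE 0.07, 95% interval 1.04 to 1.35), a 2.29-fold rise, with an edgeR adjusted p of 1.67e-06. In FPKM the levels were 195, 190 and 199 against 412, 414 and 372.

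HLA-B (chr6:31269491-31357188, minus strand) encodes a classical heavy chain that presents peptides to CD8 T cells. Its level was 414, 350 and 339 CPM in DMSO and 697, 638 and 650 CPM after MPM-1. The lowest MPM-1 library was well above the highest DMSO library, which was replicate 1. HLA-B rose 1.80-fold, a log2 fold change of 0.85 (SE 0.09, 95% interval 0.65 to 1.05, edgeR adjusted p = 4.64e-05). The pseudogene AL671883.2 overlaps 542 exonic bases of HLA-B on the opposite strand.

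HLA-C (chr6:31268749-31272130, minus strand) encodes the classical chain best known as a ligand of killer-cell immunoglobulin-like receptors. It was measured at 526, 438 and 429 CPM in DMSO and at 789, 664 and 699 CPM after MPM-1. Again the groups did not overlap and DMSO replicate 1 was the highest control. The rise was 1.54-fold, with a log2 fold change of 0.63 (SE 0.10, 95% interval 0.40 to 0.85, edgeR adjusted p = 0.000546). The annotated HLA-B and HLA-C genes share 35 exonic bases on the same strand, and their alleles in SW480 were not part of the reference used here, so the division of reads between class I paralogs is uncertain.

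HLA-E (chr6:30489467-30494205, plus strand) encodes a non-classical chain that displays signal peptides of other class I molecules to the NKG2A and NKG2C receptors of natural killer cells. Its level was 353, 278 and 273 CPM in DMSO and 363, 323 and 371 CPM after MPM-1. The groups overlapped, because DMSO replicate 1 exceeded MPM-1 replicate 2. The log2 fold change of 0.22 (SE 0.11, 95% interval -0.02 to 0.47) did not pass edgeR's test (adjusted p = 0.103). Without DMSO replicate 1 it was 0.35 (adjusted p = 0.00749) and without MPM-1 replicate 2 it was 0.31 (adjusted p = 0.0497), both in edgeR and both past the threshold. With library size alone it was 0.08 (edgeR adjusted p = 0.513), and with limma on log2(FPKM + 0.1) also 0.08 (adjusted p = 0.516).

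HLA-F (chr6:29722775-29738528, plus strand) encodes another non-classical chain, which can reach the surface as an open conformer without peptide. It stood at 63.3, 54.4 and 53.9 CPM in DMSO and at 76.7, 76.2 and 77.8 CPM after MPM-1. The MPM-1 libraries were tightly grouped above all controls in CPM, and in FPKM too the groups did not overlap, with 51.7 the highest DMSO value and 52.8 the lowest MPM-1 value. The rise was 1.34-fold, a log2 fold change of 0.43 (SE 0.08, 95% interval 0.24 to 0.61, edgeR adjusted p = 0.00195). On the opposite strand HLA-F-AS1 overlaps 535 exonic bases of HLA-F, AL645939.1 overlaps 701 and RPL23AP1 overlaps 257. The strand setting of the counting is not given in the sources used here.

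Because reads can move between similar heavy chains, the 4 HLA members were also added into 1 feature. The sum was 1357, 1120 and 1096 CPM in DMSO and 1925, 1701 and 1797 CPM after MPM-1. This sum does not depend on how reads were divided among these 4 genes, and its groups did not overlap. Its log2 fold change was 0.60 (SE 0.09, edgeR adjusted p = 0.000439).

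Proportions within a library do not depend on the scaling between libraries. In FPKM the 4 heavy chains together were 4.09, 3.58 and 3.32 times B2M in DMSO and 2.54, 2.32 and 2.68 times B2M after MPM-1. The ratio averaged 3.66 ± 0.39 in DMSO and 2.51 ± 0.182 after MPM-1 (SD, n = 3), and every MPM-1 library was below every control. An exact two-sided permutation test gave p = 0.1, the smallest that 3 against 3 allows, and 0.167 after Benjamini-Hochberg adjustment over 5 such measures.

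Among the 4 heavy chains HLA-C held the largest share of FPKM in every library, followed by HLA-B, HLA-E and HLA-F. The HLA-B share was 33.6%, 34.5% and 34.2% in DMSO and 38.8%, 40.2% and 38.7% after MPM-1, without overlap (exact permutation p = 0.1, adjusted 0.167). The HLA-E share was lower, at 17%, 16.3% and 16.4% in DMSO and 12%, 12.1% and 13.1% after MPM-1, also without overlap (exact permutation p = 0.1, adjusted 0.167). HLA-C, at 43.3% ± 0.319 and 42.7% ± 1.26 (SD, n = 3), and HLA-F, at 6.05% ± 0.375 and 5.65% ± 0.692, had overlapping groups (exact permutation p = 0.4 for each).

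**Figure D2:**
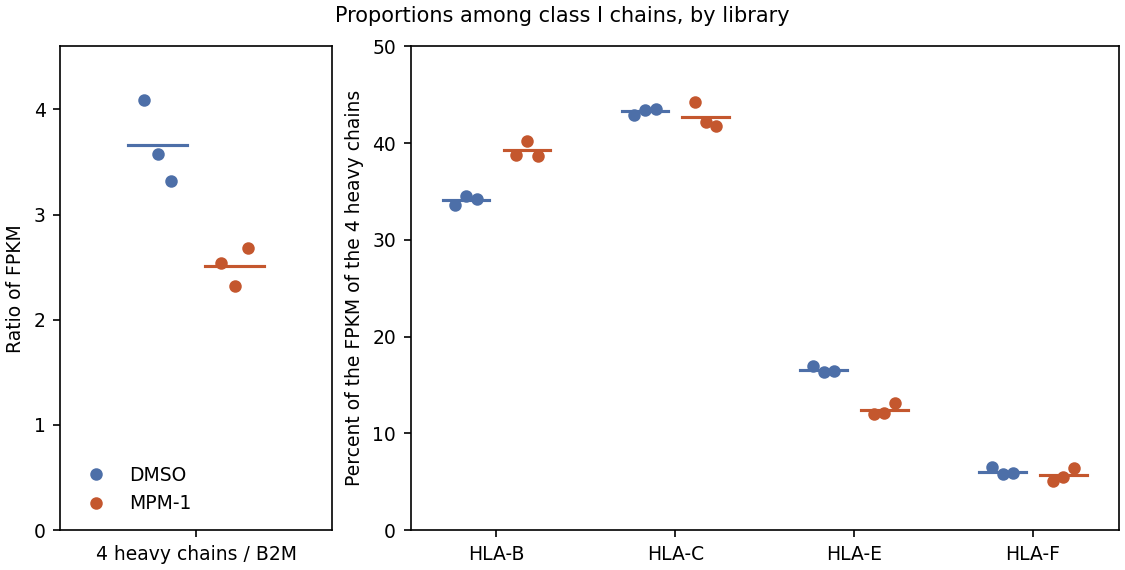
Left, the FPKM of the 4 heavy chains divided by that of B2M in each library; right, the share of each heavy chain in the FPKM of the 4, in percent, with DMSO in blue, MPM-1 in orange and bars at the group means (n = 3). The ratio is lower in all 3 MPM-1 libraries (2.32 to 2.68) than in all 3 controls (3.32 to 4.09), the HLA-B share is higher and the HLA-E share lower.

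TAP1 and TAP2 encode the subunits of the peptide transporter of the endoplasmic reticulum. TAP1 (chr6:32845209-32853978, minus strand) was at 76.5, 64.7 and 56.8 CPM in DMSO and 64.5, 61.6 and 57.4 CPM after MPM-1. The groups overlapped, with the highest value again in DMSO replicate 1. Its log2 fold change was -0.11 (SE 0.11, 95% interval -0.36 to 0.14, edgeR adjusted p = 0.419), and it was 0.01 without DMSO replicate 1. In FPKM the MPM-1 libraries (19.6, 19.5 and 17.8) all lay below the controls (25.8, 22.6 and 19.8), with limma's adjusted p at 0.0797 on log2(FPKM + 0.1). FPKM are not TMM-scaled, and in that limma fit TAP1 was at -0.25 and the median over all genes at -0.15. On the opposite strand PSMB8-AS1 overlaps 456 exonic bases of TAP1.

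TAP2 (chr6:32821833-32838780, minus strand) was at 26.7, 29.9 and 28 CPM in DMSO and 24.4, 20.5 and 21.7 CPM after MPM-1. All 3 MPM-1 libraries were below all 3 controls. The log2 fold change was -0.35 (SE 0.10, 95% interval -0.58 to -0.11, edgeR adjusted p = 0.0171). The call was lost in edgeR without DMSO replicate 2 (-0.30, adjusted p = 0.0739), without MPM-1 replicate 2 (-0.27, adjusted p = 0.0691) and without MPM-1 replicate 3 (-0.31, adjusted p = 0.0737). Of the 75-base windows of the TAP2 transcript 35.5% also occur in the overlapping gene AL669918.1, which has no row of its own, so the assignment of reads to TAP2 is uncertain.

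TAPBP (chr6:33299694-33314387, minus strand) encodes tapasin, the chaperone that bridges the transporter and the empty heavy chain. It was at 109, 124 and 97.7 CPM in DMSO and 84.9, 71.3 and 89.3 CPM after MPM-1. The groups did not overlap, although the gap between the lowest control and the highest treated library was small beside the spread within each group. TAPBP was lower by a log2 fold change of -0.43 (SE 0.11, 95% interval -0.68 to -0.18, edgeR adjusted p = 0.00871), which is 1.35-fold higher in DMSO.

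ERAP1 (chr5:96760810-96808100, minus strand) encodes the aminopeptidase that trims peptides to the length class I molecules bind. It was the lowest member, at 2.67, 7.29 and 9.19 CPM in DMSO and 5.88, 5.24 and 5.03 CPM after MPM-1. DMSO replicate 1 was the lowest of all 6 libraries and DMSO replicates 2 and 3 the highest, so the treated libraries sat inside the control range. The log2 fold change of -0.25 had an SE of 0.37 and a 95% interval of -1.08 to 0.57 (edgeR adjusted p = 0.585). Without DMSO replicate 1 it was -0.61 (edgeR adjusted p = 0.0277) and without DMSO replicate 3 it was 0.10, so a change in ERAP1 was not detectable beyond the spread of the controls. On the opposite strand CAST overlaps 299 exonic bases of ERAP1 and AC008906.1 overlaps 252.

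DMSO replicate 1 was the highest control for all 4 HLA members and TAP1 and the lowest for ERAP1. Without it, 5 of the 9 members were higher and 3 lower, beside 3477 higher and 3575 lower of all 12982 genes. Its part in the wider control spread of these genes was not tested.

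**Figure D3:**
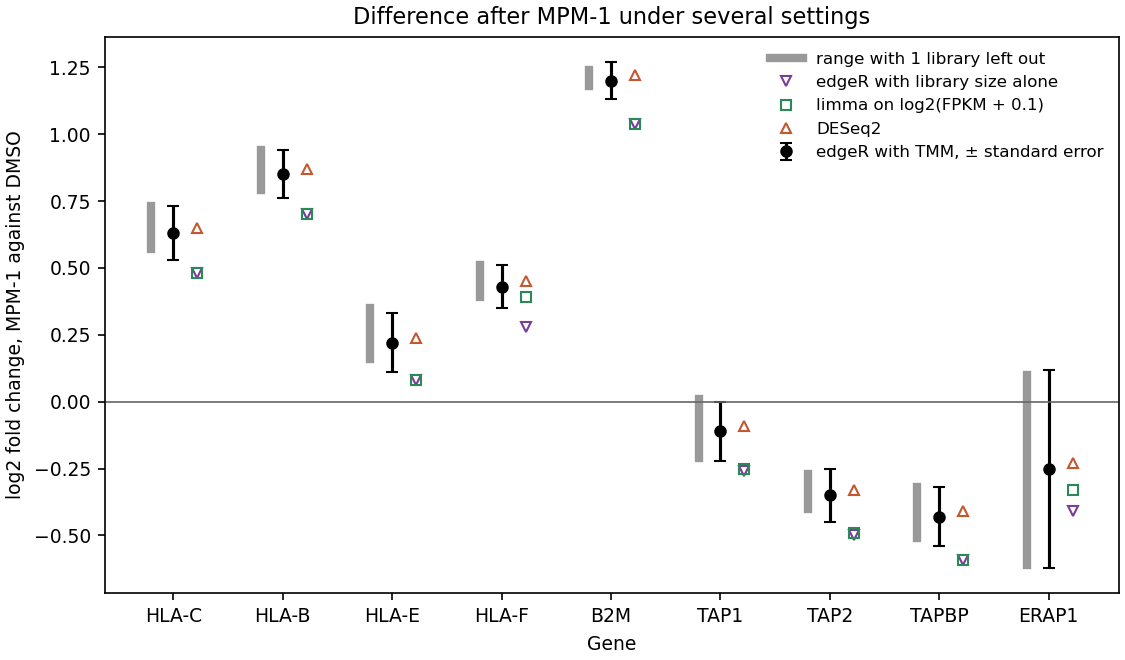
Difference of each class I gene between MPM-1 and DMSO as a log2 fold change: black points with standard errors from edgeR with TMM scaling, grey bars for the range when 1 library is left out, and open symbols for DESeq2, library size alone and limma on FPKM. B2M, HLA-B, HLA-C and HLA-F stay above 0 and TAP2 and TAPBP below 0 under each setting drawn, while the grey bars of TAP1 and ERAP1 cross 0.

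The scaling between libraries moved the size of these values. With library size alone in place of TMM, the median over all genes moved, in log2 units, from -0.03 to -0.18 and the share of calls that were higher from 49% to 34.7%. B2M was then at 1.04, HLA-B at 0.70, HLA-C at 0.48 and HLA-F at 0.28, and TAP2 and TAPBP were at -0.50 and -0.59. The calls and directions of these 6 genes were the same under both scalings.

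Other genes of the pathway, taken from lists of known function, were measured around the members. Among 5 further class I-like heavy chains, MR1 was higher, FCGRT was lower and HFE, AZGP1 and PROCR did not pass. MR1, which presents vitamin B metabolites to mucosal-associated invariant T cells, had a log2 fold change of 0.53 in the counts (edgeR adjusted p = 0.0256), but its FPKM overlapped, at 1.17, 2.24 and 1.72 in DMSO and 1.28, 1.98 and 1.73 after MPM-1. FCGRT, the neonatal Fc receptor chain that also pairs with β2-microglobulin, had a log2 fold change of -1.51 (edgeR adjusted p = 0.00172). HFE, an iron-regulating chain, was at -0.59 (edgeR adjusted p = 0.0769), and AZGP1 and PROCR were both at -0.02.

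Of 24 genes of peptide supply and loading, 9 were higher (37.5%) and 6 lower (25%), against 27.7% and 28.8% of all genes. Their median log2 fold change was 0.10. The largest rises were in chaperones of the endoplasmic reticulum, HSPA5 (2.33, SE 0.21), CANX (0.99, SE 0.10), which holds newly made heavy chains, and the folding sensor UGGT1 (0.70, SE 0.07), with edgeR adjusted p of 1.74e-05, 2.91e-05 and 3.69e-05. The largest falls were those of the immunoproteasome subunit PSMB9 (-1.12, SE 0.17), the bleomycin hydrolase BLMH (-0.97, SE 0.08) and the oligopeptidase THOP1 (-0.77, SE 0.07). Their edgeR adjusted p were 0.000419, 1.58e-05 and 2.28e-05. Other peptide-cutting genes were higher, the peptidases TPP2 (0.52, edgeR adjusted p = 0.00166) and NRDC (0.20, edgeR adjusted p = 0.0449) and the proteasome subunit PSMB7 (0.25, edgeR adjusted p = 0.0205). The chaperone CALR did not pass (0.14, edgeR adjusted p = 0.278). TPP2, NRDC, PSMB7 and CALR were named after their values were seen. PSMB9 was at 8.64, 8.71 and 9.82 CPM in DMSO and 3.97, 4.03 and 4.53 CPM after MPM-1. Its annotated span overlaps that of TAP1 on the opposite strand, without shared exonic bases. PSMB8, another immunoproteasome subunit named after its values were seen, had a log2 fold change of -0.39 (edgeR adjusted p = 0.00794). The third immunoproteasome subunit, PSMB10, did not pass the test (-0.03, edgeR adjusted p = 0.916), and PDIA3, a partner of tapasin in the loading complex, was higher (0.29, edgeR adjusted p = 0.0196), both likewise named after their values were seen.

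Of 28 transcriptional regulators of class I genes, 8 were higher (28.6%) and 8 lower (28.6%), with a median of 0.01. These shares were near those of all genes, 27.7% and 28.8%. NLRC5, the transactivator of class I promoters, was at 14.0, 11.3 and 10.8 CPM in DMSO and 26.9, 18.1 and 22.4 CPM after MPM-1, without overlap (log2 fold change 0.90, SE 0.17, edgeR adjusted p = 0.00149). RFX5, a subunit of the RFX complex that NLRC5 joins on the promoter, was at 78.2, 74.6 and 80.9 CPM against 34.3, 45.4 and 42.4 CPM (log2 fold change -0.94, SE 0.11, edgeR adjusted p = 7.36e-05). Its partner RFXAP was lower as well (-1.50, SE 0.28, edgeR adjusted p = 0.00132), as was IRF3 (-0.65, SE 0.13, edgeR adjusted p = 0.00201). The largest rises were those of RELB (1.51), a subunit of NF-κB, and of the interferon-pathway factors IRF9 (1.10) and IRF7 (0.98), with edgeR adjusted p of 4.77e-05, 0.0212 and 0.000649. IRF1, at 6.31, 7.11 and 6.03 CPM against 9.22, 6.28 and 8.90 CPM, had overlapping groups (0.33, edgeR adjusted p = 0.177).

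A list of 12 genes held interferon receptors, their kinases and the pathway inhibitors SOCS1, SOCS3 and PTPN2. Of these 12 genes 5 were higher (41.7%) and 2 lower (16.7%), against 27.7% and 28.8% of all genes. Their median was 0.34. The kinase JAK1 had the largest rise, from 49.8, 58.1 and 51.9 CPM to 154, 131 and 132 CPM (log2 fold change 1.38, SE 0.09, edgeR adjusted p = 4.08e-06). Both chains of the interferon-γ receptor were higher, IFNGR1 by 0.75 and IFNGR2 by 0.86 (edgeR adjusted p = 9.21e-05 and 2.94e-05). Also higher were the kinase JAK2 (0.66, edgeR adjusted p = 0.00569) and the inhibitor PTPN2 (0.47, edgeR adjusted p = 0.00233). JAK2 and PTPN2 were named after their values were seen. The type I receptor chain IFNAR2 (-0.83, edgeR adjusted p = 0.000423) and the kinase TYK2 (-0.25, edgeR adjusted p = 0.0347) were lower.

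**Figure D4:**
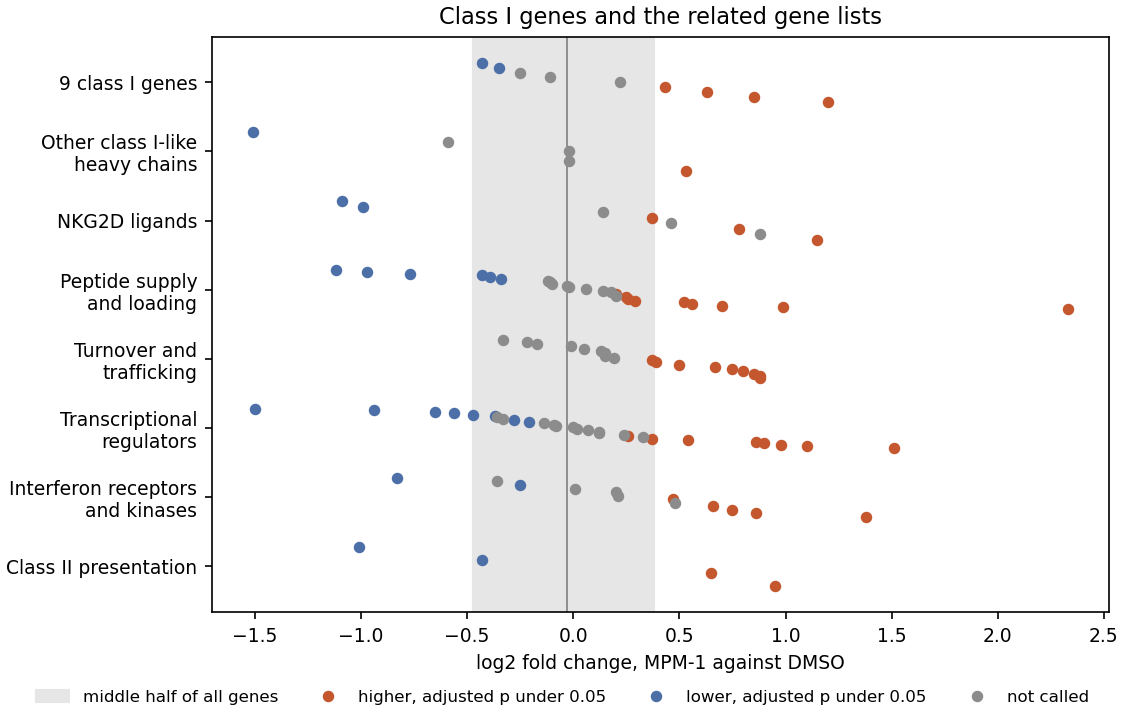
log2 fold changes of the 9 class I genes and of the genes of 7 related lists, 1 point per gene, orange for higher, blue for lower and grey for not called at an edgeR adjusted p under 0.05; the grey band holds the middle 50% of all genes, from -0.47 to 0.38, and the line is their median, -0.03. The highest point is HSPA5 at 2.33 and the lowest FCGRT at -1.51.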

How the data were processed

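Total RNA from SW480 cells was sequenced for the authors by Beijing Biomarker Technology as mRNA libraries, 3 DMSO and 3 MPM-1. The deposited table gives a read count and an FPKM value for each gene and library. HISAT2, DESeq2 and the mouse build mm10 are named in the submitters' processing notes, although the gene identifiers are human Ensembl ones (12127, besides 855 numbered NewGene). The counting tool, its strand setting, the annotation and the gene filter are not given in the sources used here. The lowest total of any gene was 115 counts, so genes without reads or with very few have no row. Fold change and false discovery rate columns of the authors were not used.

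Counts of all 12982 genes were fitted with edgeR 4.0.16 (glmQLFit and glmQLFTest, TMM, group as the only term) in R 4.3.3, with Benjamini-Hochberg adjustment. The alternatives were DESeq2 1.42.0, DESeq2 size factors, library size alone, a mean of at least 50 counts, a replicate block, limma 3.58.1 on log2(FPKM + 0.1) and log2(FPKM + 1) with a minimum mean of 1 FPKM, limma on log2(FPKM + 0.1) without that minimum, and each library left out. Differences on FPKM understate the change of low genes. The edgeR fit was tested on simulated data. Replicates differed by more than sampling noise (chi-square per gene 15.4 to 33.2), and all 6 libraries entered the fit. The chi-square does not tell separate cultures from repeated preparations. Depth was 31733667 to 40269820 reads per library.

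Positions come from GENCODE 29 (GRCh38) and promoters from RefSeq (GRCh38.p14), read with Python 3.11.15. Every member was named, with up to 3 largest rises and 3 largest falls past the threshold from each related list, every further class I heavy chain and class II, immune or stromal gene with a row, and NLRC5, IRF1 and RFX5. From the related lists 3 genes are not reported here and enter no count or median of a list. The members and lists were chosen with earlier results of these data known.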

Additional observations from a re-analysis of the deposited data

How the results depend on the processing

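B2M, HLA-B, HLA-C, HLA-F, TAPBP and the summed heavy chains kept their direction and their call under all 14 alternatives run, with B2M between 1.03 and 1.24, HLA-B between 0.70 and 0.94, HLA-C between 0.47 and 0.73, HLA-F between 0.28 and 0.51 and TAPBP between -0.59 and -0.32. HLA-E passed the threshold with DESeq2 (0.24, adjusted p = 0.0497). When 1 library was left out, HLA-E ranged from 0.16 to 0.35, TAP1 from -0.21 to 0.01, TAP2 from -0.40 to -0.27 and ERAP1 from -0.61 to 0.10. TAP1 changed sign without DMSO replicate 1 and ERAP1 without DMSO replicate 3. In these fits the members called lower numbered 1 to 3, beside 3078 to 3575 of all 12982 genes. The cause was not tested.

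In CPM in place of FPKM, which weights genes by length, the heavy chain to B2M difference was -2.32 (-1.15 in FPKM), the HLA-E share difference -5.77 percentage points (-4.15) and the HLA-C share difference 0.616 (-0.583), a reversal, and the HLA-F shares no longer overlapped (4.82% ± 0.132 and 4.26% ± 0.252, SD, n = 3, exact permutation p = 0.1). Of 99 genes in the 7 related lists, 37 were higher and 21 lower, against 27.7% and 28.8% of all genes, and 4 and 4 passed the stricter lines, against 5.58% and 8.75% of all genes.

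Across all genes, limma on log2(FPKM + 0.1) called 2345 higher and 4042 lower, against 3596 and 3740 in edgeR with TMM, and library size alone called 2589 and 4871. Same-numbered libraries did not deviate together (r = 0.02, 0.14 and -0.07), so the numbers were not taken as pairs. With a replicate block, edgeR called 3475 genes higher and 3642 lower, B2M was at 1.20 (adjusted p = 1.34e-05), TAP2 at -0.35 (adjusted p = 0.0337) and ERAP1 at -0.10 (adjusted p = 0.828), and no member's call changed.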

Other observations

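Ligands of NKG2D, the activating receptor of natural killer cells, are distant relatives of class I chains that do not need β2-microglobulin. Of 8 such genes 3 were higher (37.5%) and 2 lower (25%) after MPM-1, against 27.7% and 28.8% of all genes. Their median log2 fold change was 0.42. ULBP1 was at 3.40, 3.94 and 4.44 CPM in DMSO and 8.11, 7.77 and 10.3 CPM after MPM-1 (1.15, edgeR adjusted p = 0.000858), and RAET1L (0.78) and ULBP2 (0.37) were higher too (edgeR adjusted p = 0.0021 and 0.016). MICB went from 15.0, 15.8 and 15.0 CPM to 6.53, 7.54 and 7.48 CPM (-1.09, edgeR adjusted p = 0.000156), and ULBP3 was at -0.99 (edgeR adjusted p = 0.022). MICA did not pass the test (0.14, edgeR adjusted p = 0.286).

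Of 18 genes of class I turnover and trafficking, 9 were higher (50%) and 0 lower, with a median of 0.28. Over all genes the shares were 27.7% and 28.8%. The cargo receptor TMED10 (0.88), the glycosyltransferase B3GNT5 (0.88) and the ubiquitin ligase SYVN1 (0.85) had the largest rises (edgeR adjusted p = 8.09e-06, 7.4e-05 and 0.000483). Of 15 class II presentation genes 4 had a row. HLA-DQB1 (0.95) and HLA-DMA (0.65) were higher, and the class II transactivator CIITA (-1.01) and the thiol reductase IFI30 (-0.43) were lower (edgeR adjusted p = 0.00111, 0.00966, 0.0139 and 0.00249).

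Among marker genes of other cell types, CD79A (1.01) and CD68 (1.08) were higher and CD14 (-1.34) and COL1A1 (-2.07) lower (edgeR adjusted p = 0.00586, 0.000165, 0.00315 and 0.00536), while PDGFRB (-0.30) and ACTA2 (-0.17) did not pass. Of the colon epithelial markers 5 were higher, ELF3 (1.58), KRT18 (0.89) and KRT19 (0.89) with the largest rises, and 4 lower, CDX2, KRT20 and CDX1 (-0.98) with the largest falls.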
